A study of Saccharomyces cerevisiae with 21 samples.

Results

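Ribosome biogenesis factors are the proteins that cut, modify and fold ribosomal RNA and load it with ribosomal proteins, and that do not stay in the finished ribosome. The genes described here are the *Saccharomyces cerevisiae* genes whose R64 symbol is UTP, NOP, RRP, NOC, NOG, NSA, RPF or RLP followed by a number. This rule found 64 of the 5767 genes listed in at least 1 library, and every gene it found was listed. By role, 24 act on the large (60S) subunit, 15 are other factors of the small (40S) subunit, and 7 are subunits of the RNA exosome, the 3′ to 5′ exonuclease that trims precursor RNA. A further 6 belong to UTP-A (t-UTP), 4 to UTP-B and 3 to UTP-C with its neighbour Rrp36, which are building blocks of the small subunit processome. The remaining 5 are core proteins of the small nucleolar ribonucleoproteins (snoRNPs), which guide the modification of ribosomal RNA.

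In budding yeast, ribosomal RNA is transcribed in the nucleolus as a long precursor, and the small subunit processome assembles on it during transcription. The 40S and 60S precursors then part, mature separately and leave the nucleus, and each step needs its own set of factors. The mRNAs of these factors are known to be regulated together with growth: glucose activates their transcription through the TORC1 and protein kinase A pathways, and many of their promoters carry the PAC and RRPE motifs, which are bound by the repressors Dot6 and Tod6 and by Stb3.

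Ribosome-protected fragments (RPFs), the mRNA pieces that a ribosome shields from nuclease, were sequenced from wild-type BY4741, a haploid MATa strain that carries his3Δ1, leu2Δ0, met15Δ0 and ura3Δ0. In the CHX-pretreated experiment, cells in log phase in synthetic complete medium with glucose, or after 15 min in the same medium without glucose (SC-G), received the elongation inhibitor cycloheximide (CHX) for 1 min before harvest, with 2 libraries per condition. In the time course, cells received no pretreatment and were harvested in log phase and after 1, 5 and 15 min of glucose starvation (2 libraries each) and after 10, 20 and 30 min (1 library each), and a matched 15 min library with CHX pretreatment was made beside them. A separate experiment took 1 library each from log phase, 1 day (postdiauxic) and 5 days (stationary phase) of growth in YPD, a rich medium, without CHX pretreatment. All cultures were bulk populations and RPF libraries report shares of all RPF reads, so fewer ribosomes on an mRNA, less of the mRNA per cell and fewer cells that express it cannot be told apart.

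The pretreated libraries held 1862525 to 5170260 RPF reads in genes. In the time course, the libraries of replicate 1 in log phase and at 1, 5 and 15 min, together with the matched library, held 3523240 to 7896332 reads, whereas the replicate 2 libraries and those at 10, 20 and 30 min held only 71816 to 135958. The YPD libraries held 652361, 575896 and 169545 reads. Pretreated 15 min replicate 2 is the only pretreated library among the 4 labelled as made without removal of ribosomal RNA, so results are also given without it. The a-specific genes MFA1, MFA2, STE2 and BAR1 had reads in all 19 libraries, while LEU2, MET17 (MET15) and URA3 did not exceed 13.9 CPM (reads of a gene scaled by the library total) in any. HIS3, in which his3Δ1 removes only an internal stretch, had reads in all 19. The alpha-specific SAG1 reached 64.9 CPM in 1 library.

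Promoter sequence is a feature of these genes that the symbol rule did not use. The PAC core (GATGAG) or its complement was present in the window from 250 bases before to 50 bases after the coding start, on either strand, in 54 of the 64 factors (84.4%) and in 20.1% of the 5753 genes with a window. The RRPE core (AAAAATTT, either strand) was present in 49 factors (76.6%) and in 14.6% of all genes. Both cores were present in 42 factors (65.6%) and in 5.88% of all genes, and neither core contains the other. Neither was found in RRP45 and RRP46, which encode ring subunits of the exosome, or in UTP22, a UTP-C subunit. Of the 7 exosome genes, 3 carried each core.

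The following windows are shown because these genes gave the largest or the opposing responses below. Each runs 5′ to 3′ on the coding strand from 200 to 51 bases before the start codon (R64, read from the RefSeq genome), and capitals mark PAC or RRPE cores on either strand. NOP10, RRP1, RRP7 and NOP7 had fewer RPF reads after starvation in the pretreated libraries, whereas UTP14 and NOP16 pointed the other way.
NOP10, chrVIII:241464-241613, + strand: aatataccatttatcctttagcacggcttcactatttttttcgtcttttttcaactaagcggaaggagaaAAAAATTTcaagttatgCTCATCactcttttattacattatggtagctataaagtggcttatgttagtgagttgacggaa
RRP1, chrIV:618357-618506, - strand: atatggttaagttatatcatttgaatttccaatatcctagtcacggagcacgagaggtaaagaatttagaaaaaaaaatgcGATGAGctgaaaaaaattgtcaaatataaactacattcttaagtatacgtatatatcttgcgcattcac
RRP7, chrIII:65619-65768, - strand: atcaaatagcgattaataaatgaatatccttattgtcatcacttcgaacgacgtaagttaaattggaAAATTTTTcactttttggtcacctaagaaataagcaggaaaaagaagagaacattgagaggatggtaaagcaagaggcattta
NOP7, chrVII:695217-695366, + strand: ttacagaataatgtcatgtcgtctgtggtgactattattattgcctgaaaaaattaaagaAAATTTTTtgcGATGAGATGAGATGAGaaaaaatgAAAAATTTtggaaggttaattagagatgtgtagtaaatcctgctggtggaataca
UTP14, chrXIII:82890-83039, + strand: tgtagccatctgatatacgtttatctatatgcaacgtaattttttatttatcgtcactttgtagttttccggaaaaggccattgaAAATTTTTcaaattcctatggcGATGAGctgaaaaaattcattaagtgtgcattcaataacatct
NOP16, chrV:156603-156752, + strand: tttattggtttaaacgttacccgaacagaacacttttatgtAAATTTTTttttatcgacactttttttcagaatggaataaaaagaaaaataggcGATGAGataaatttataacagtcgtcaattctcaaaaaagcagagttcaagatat
The NOP10, UTP14 and NOP16 windows each hold 1 PAC and 1 RRPE core, so the cores alone do not separate NOP10 from the genes that pointed the other way. The NOP7 window holds 3 overlapping PAC cores between 2 RRPE cores, RRP1 carries PAC alone and RRP7 carries RRPE alone. Among the 11 factors with significantly lower counts in the pretreated libraries, 9 had a PAC core and 9 an RRPE core. Of the other 53 factors, 45 and 40 did.

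In log phase, the snoRNP core proteins had the highest median footprint density of all the roles. Density was expressed as TPM, in which reads are divided by coding length and then scaled to the same total in each library. NOP1, the fibrillarin methyltransferase of box C/D snoRNPs, had 1306 and 936 TPM in the pretreated log phase libraries, 568 and 730.1 in the time course and 670.1 in YPD, a mean of 842. NOP10, a small protein of the box H/ACA snoRNPs that make pseudouridine, averaged 689.6 TPM, and NOP58 and NOP56, the paired scaffold proteins of box C/D snoRNPs, averaged 659.7 and 583. The means do not order NOP58 and NOP56, since that of NOP58 includes 208 reads in shallow time course log phase replicate 2. By CPM, NOP58 was below NOP56 in time course log phase replicate 1 (548 against 624) and in YPD (701 against 877). The median factor averaged 68.6 TPM. NOP7, the large subunit factor with the next highest mean, averaged 217 TPM. NOP1, NOP58 and NOP56 were above NOP7 in all 5 libraries. NOP10 ran from 119 TPM, on 2 reads in time course log phase replicate 2, to 1026 TPM, and was below NOP7 (198 TPM) in that shallow library.

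Within the other roles, RRP5, which acts in the assembly of both subunits, averaged 182 TPM and UTP8 of UTP-A averaged 80.1. RRP7 of UTP-C averaged 79.2, RRP40, an RNA-binding cap subunit of the exosome, averaged 72.7, and UTP21 of UTP-B averaged 57.1. These last 4 cannot be ordered, since their ranges over the 5 libraries overlap: UTP8 ran from 50.1 to 108 TPM, RRP7 from 59.0 to 119.9, RRP40 from 51.8 to 92.4 and UTP21 from 39.1 to 67.4. The lowest mean belonged to RRP36, at 30.3 TPM.

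As a share of all RPF reads, the 64 factors took 1.60% and 1.61% in pretreated log phase and 1.08% and 1.44% after 15 min of starvation. The means were 1.61% ± 0.00244 and 1.26% ± 0.259 (SD, n = 2), so both starved libraries were below both log phase libraries but differed widely from each other. With 2 libraries against 2, a two-sided exact permutation test gave p = 0.333, the smallest value this design allows. In the time course, the replicate 1 libraries gave 0.775% in log phase and 0.869%, 0.855% and 0.842% after 1, 5 and 15 min. The replicate 2 libraries gave 1.09%, 1.08%, 1.11% and 1.20%. Starved and log phase libraries therefore overlapped, and the two-sided exact permutation p was 1.00, 0.667 and 0.667 at 1, 5 and 15 min (n = 2 per group). Within pairs of the same replicate number the share was higher after starvation in 1 of 2 pairs at 1 min. It was higher in both pairs at 5 min (by 0.0799 and 0.0200 percentage points) and at 15 min (by 0.0669 and 0.103). In replicate 2 much of this was 1 gene. NOP58 gave 208 of 1033 factor reads in log phase, 313 of 1512 at 5 min and 292 of 1153 at 15 min. The pairs were not compared without NOP58. The exact permutation p within pairs was 1.00, 0.500 and 0.500, and 0.500 is the smallest that 2 pairs allow. In the pretreated libraries the share was lower in both pairs (differences of -0.527 and -0.164 percentage points, exact permutation p = 0.500).

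**Figure D1:**
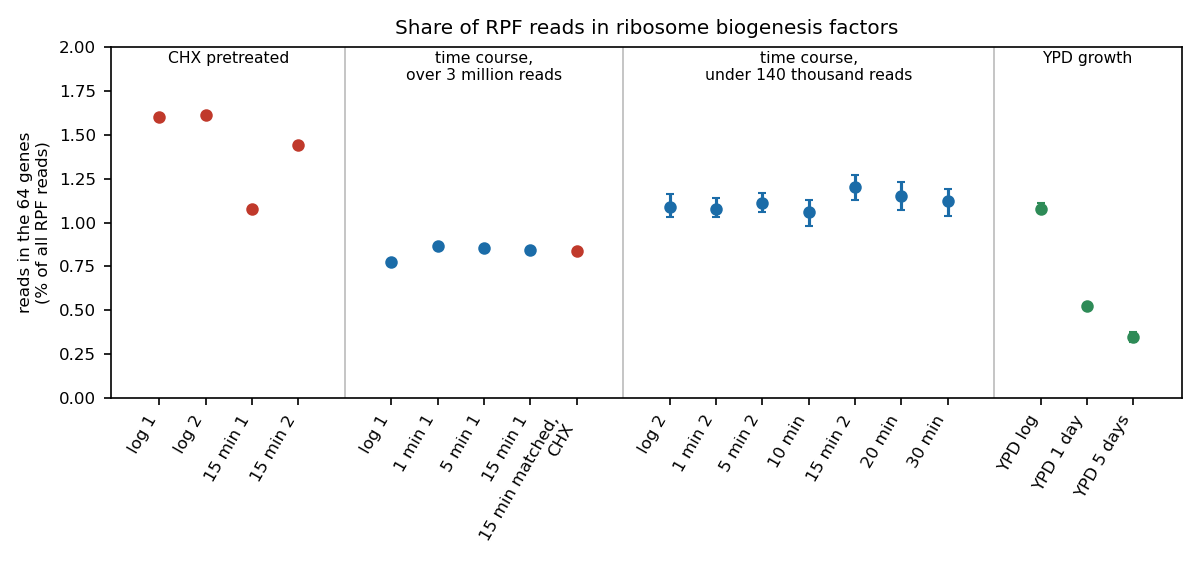
Share of RPF reads (% of all reads in genes) that fell in the 64 ribosome biogenesis factors, 1 point per library, with Wilson 95% binomial intervals that cover counting error only. Pretreated log phase libraries sit at 1.60% and 1.61%, the deep time course libraries between 0.775% and 0.869%, and the YPD libraries go from 1.08% to 0.525% at 1 day and 0.346% at 5 days.

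The first comparison asks which of these mRNAs lost or gained RPF reads after 15 min of glucose starvation in CHX-pretreated cells. Counts were lower for 11 of the 64 factors and higher for none (edgeR quasi-likelihood test, Benjamini-Hochberg adjusted p below 0.05 over 5090 genes). That is 17.2% of the factors, beside 4.93% of all genes lower and 7.72% higher. The median log2 fold change of the factors was -0.45 (quartiles -0.82 and -0.21), beside -0.00 over all genes, and 57 of 64 were below 0. Fewer reads were found on genes of both subunits, the snoRNPs and the exosome. The 11 comprised 5 large subunit factors (RRP1, RLP24, RRP17, NOP7 and RLP7), the exosome genes RRP40 and RRP42, UTP23, NOP19, RRP7 and NOP10.

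NOP10 showed the largest change. It had 203 and 206 CPM in log phase and 32.5 and 45.1 CPM after starvation, a log2 fold change of -2.41 ± 0.233 (SE, edgeR adjusted p = 0.00415). The log phase values agreed closely and lay far above both starved values. RRP1, needed to process the precursor of 25S rRNA, had 139.7 and 148 CPM in log phase and 61.0 and 65.0 CPM after starvation (-1.18 ± 0.224 log2, edgeR adjusted p = 0.0246). RRP40 fell from 66.7 and 75.8 CPM to 28.5 and 25.2 CPM (-1.39 ± 0.267 log2, edgeR adjusted p = 0.0256). RRP7 went from 84.7 and 122 CPM to 41.5 and 45.1 CPM (-1.23 ± 0.239 log2, edgeR adjusted p = 0.0258). For all 3 genes the groups did not overlap, although the log phase values of RRP7 were themselves spread.

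The other 7 called genes had log2 fold changes between -0.91 and -1.52. RRP17, a large subunit factor, had the largest of these, from 105 and 83.9 CPM to 39.0 and 25.8 CPM. RLP24, which holds the place later taken by ribosomal protein Rpl24, went from 179 and 239 CPM to 88.0 and 63.4 CPM. NOP7, the yeast homologue of Pescadillo, went from 636 and 597 CPM to 234 and 353 CPM (-1.10 ± 0.275 log2, edgeR adjusted p = 0.0481), and here the starved libraries differed from each other by more than the log phase libraries did.

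A few factors pointed upward. UTP14, which binds and stimulates the helicase Dhr1 in the small subunit processome, had 300.4 and 250.3 CPM in log phase and 545 and 548 CPM after starvation (0.99 ± 0.296 log2, edgeR adjusted p = 0.0751). The groups were well separated but the adjusted p missed the threshold without a block. NOP16, a constituent of 60S precursors, had 157 and 162 CPM in log phase and 225 and 243 CPM after starvation (0.56 log2, edgeR adjusted p = 0.151). The 5 other factors above 0 were UTP20, UTP22, UTP10, RRP5 and NOP13, with log2 values of 0.03 to 0.44, none past the threshold.

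By role, the median log2 fold change was -0.89 for the snoRNP core proteins, -0.64 for the exosome, -0.50 for large subunit factors, -0.48 for UTP-A, -0.35 for other small subunit factors, -0.30 for UTP-B and -0.08 for UTP-C with Rrp36. None of the 6 UTP-A and 4 UTP-B genes was called, which in so few genes is near the 4.93% of all genes called lower. Replicate numbers were assumed to mark portions of the same culture, so the fit with the replicate number as a block was also made. It called 23 factors lower, among them 2 UTP-A genes, and 1, UTP14, higher (1.00 log2, edgeR adjusted p = 0.0142), beside 14.8% of all genes lower and 16.5% higher. The calls without the block depended on single libraries: 1 factor, NOP10, was still called without starved replicate 2, the library made without removal of ribosomal RNA, and 5 without log phase replicate 1.

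**Figure D2:**
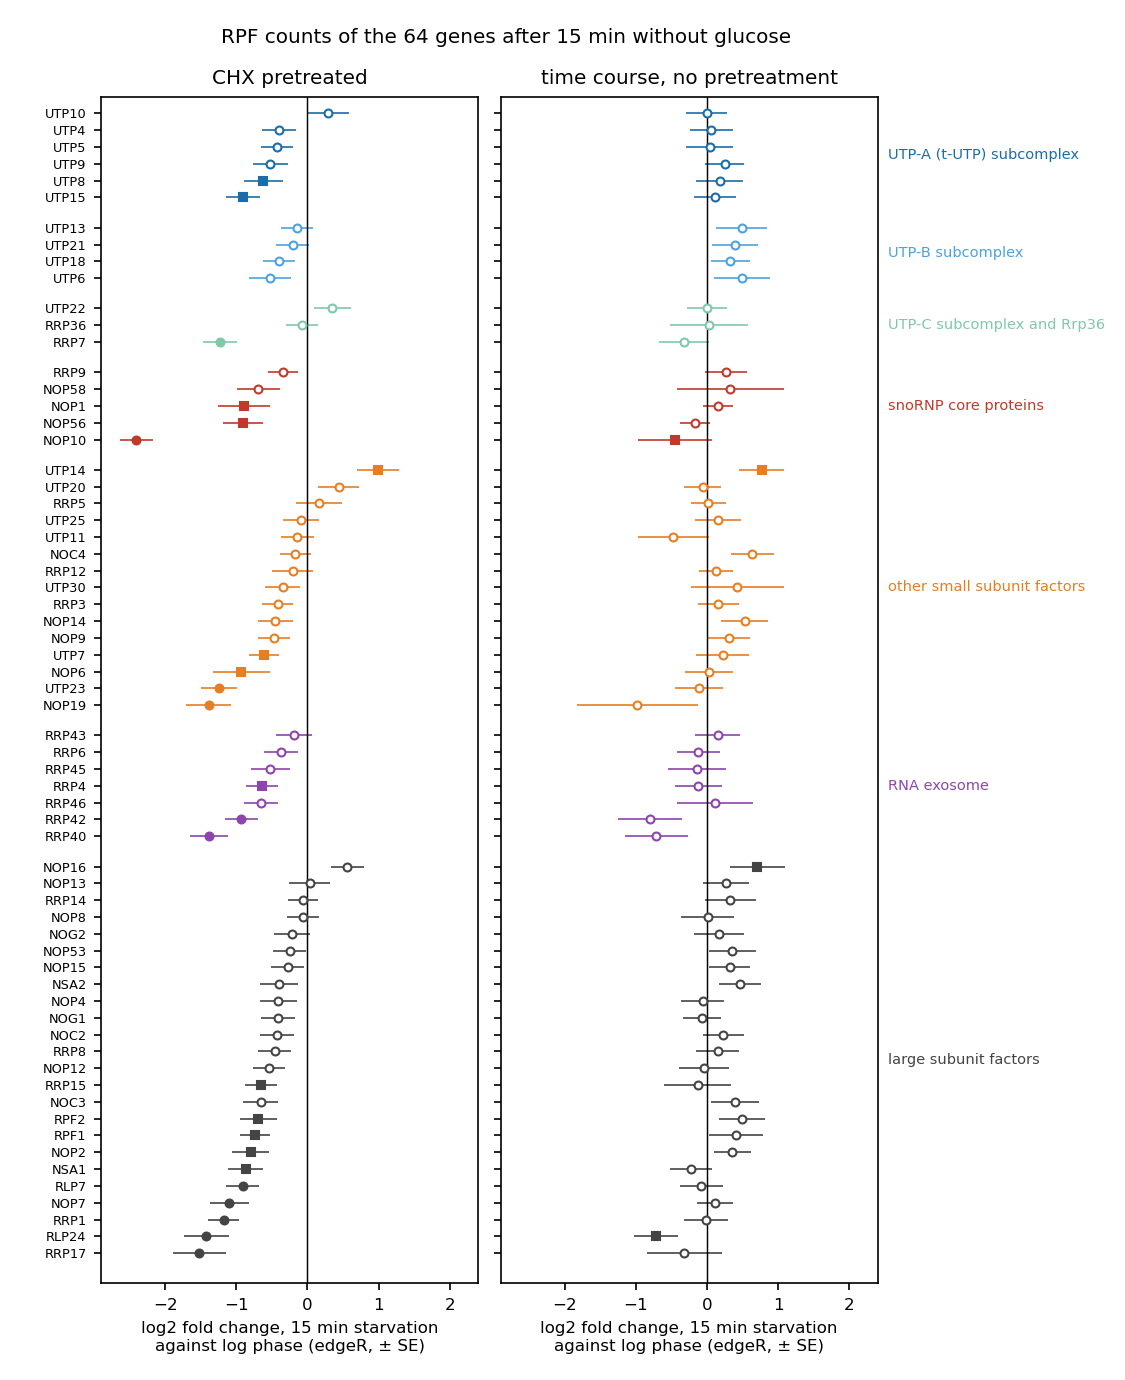
Log2 fold change ± SE (edgeR) of each factor after 15 min without glucose against log phase, grouped by role, in CHX-pretreated libraries (left) and in the time course (right). Filled circles passed the adjusted p threshold of 0.05, filled squares passed it only with the replicate block, and open circles passed neither test. The pretreated values have a median of -0.45 with NOP10 at -2.41, and the time course values a median of 0.12.

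The size of the change varied with coding length among the factors. The 16 shortest genes (177 to 837 nt) had a median log2 fold change of -0.93 and 8 were called lower. The 32 genes of 888 to 1992 nt had a median of -0.52 with 3 called, and the 16 longest (2001 to 7482 nt) had a median of -0.21 with none called. Across the 64 genes, the change correlated with log2 coding length (Pearson r = 0.65, Spearman rho = 0.50). Across all 5090 genes tested, r was 0.26 and rho 0.39. These are descriptions across genes of the same 4 libraries, which are not independent replicates. The ends of the range were NOP10, the shortest gene at 177 nt, and UTP20, a very large small subunit factor of 7482 nt, at 0.44. NOP16 (696 nt) was the short gene that went against the pattern.

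**Figure D3:**
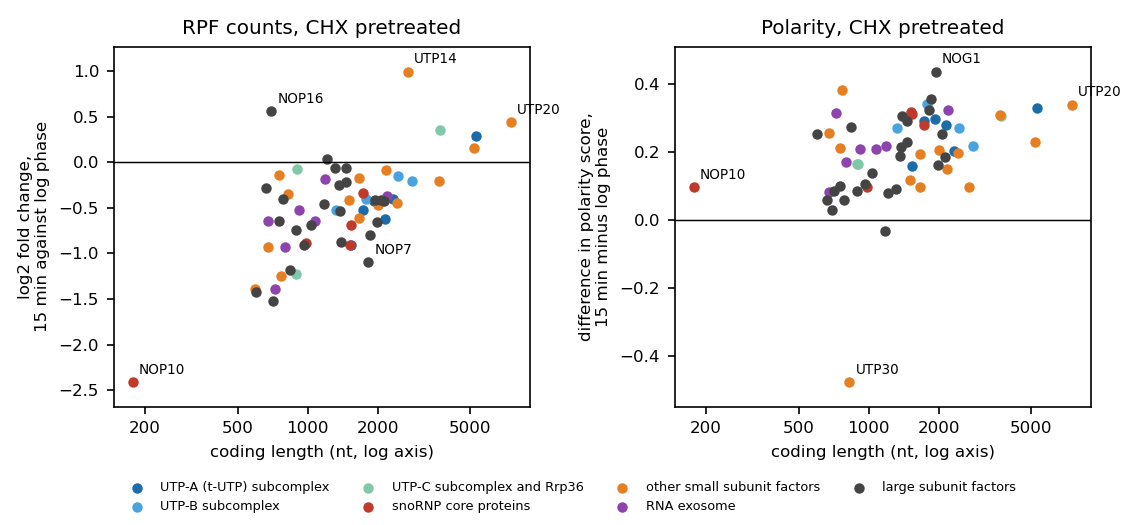
Log2 fold change in RPF counts (left) and difference in polarity score (right) after 15 min of starvation in CHX-pretreated libraries, plotted against coding length in nucleotides on a log axis, 1 point per factor coloured by role. NOP10 lies at 177 nt and -2.41 at the lower left and UTP20 at 7482 nt and 0.44 at the right, and UTP30 is the factor with a clear negative polarity difference, at -0.475.

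The polarity score asks where on the coding sequence the ribosomes sat. A score of -1 would place every read at the start of the gene and a score of 1 every read at its 3′ end. After 15 min of starvation in pretreated cells, reads on the factors had moved towards the 3′ end. The score was higher for 33 and lower for 1 of the 63 factors with more than 25 reads in each library (limma, adjusted p below 0.05 over 3979 genes), which is 52.4% beside 41.5% of all genes higher and 0.503% lower. The median difference was 0.209 for the factors and 0.185 for all genes. The shift in the factors was thus close in size to that of the transcriptome. NOP19 had too few reads to be tested.

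The median score of the factors was -0.109 and -0.128 in log phase and 0.0682 and 0.110 after starvation, beside -0.146 and -0.146, then 0.0582 and 0.0382, for all genes. NOG1, a GTPase of 60S assembly, had scores of -0.269 and -0.343 in log phase and 0.110 and 0.148 after starvation, a difference of 0.435 ± 0.0539 (SE, limma adjusted p = 0.0117). Its log phase reads were thus biased to the 5′ end and its starved reads to the 3′ end. UTP10, the largest UTP-A subunit, went from -0.131 and -0.168 to 0.163 and 0.193. NOP58 went from -0.138 and -0.162 to 0.159 and 0.163, and NOP56 from -0.0949 and -0.144 to 0.185 and 0.210. In each case the difference was above 0.3, both starved libraries lay above both log phase libraries, and the limma adjusted p was 0.0117.

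All 4 UTP-B genes and 4 of the 6 UTP-A genes passed the test with a higher score, beside 41.5% of all genes. The differences of the 6 UTP-A genes ran from 0.159 to 0.328, so all were above 0. UTP30, which encodes a protein related to ribosomal protein L1 found in small subunit precursors, was the only factor called lower. It had scores of 0.264 and 0.109 in log phase and -0.151 and -0.427 after starvation, a difference of -0.475 ± 0.107 (SE, limma adjusted p = 0.0161), resting on 156, 274, 59 and 76 reads. Its groups did not overlap, but its replicates were far apart. The deep time course libraries did not show this fall at the same starvation time. There UTP30 scored 0.205 on 144 reads in the matched library, which was also pretreated. Without pretreatment it scored 0.125 on 90 reads, against 0.129 on 62 reads in deep log phase. At 1 min its deep score was below that of log phase (difference -0.155). Each of these is a single library. With the replicate block, 43 factors were higher and 1 lower, beside 56.1% of all genes higher and 1.16% lower. The count depended on the log phase libraries: with either left out no factor was called, whereas 45 were called higher without starved replicate 1 and 38 without starved replicate 2. Among the factors, the difference in score correlated with log2 coding length (r = 0.40, rho = 0.45 over 63 genes), as it did over all 3979 genes (r = 0.42, rho = 0.44).

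**Figure D4:**
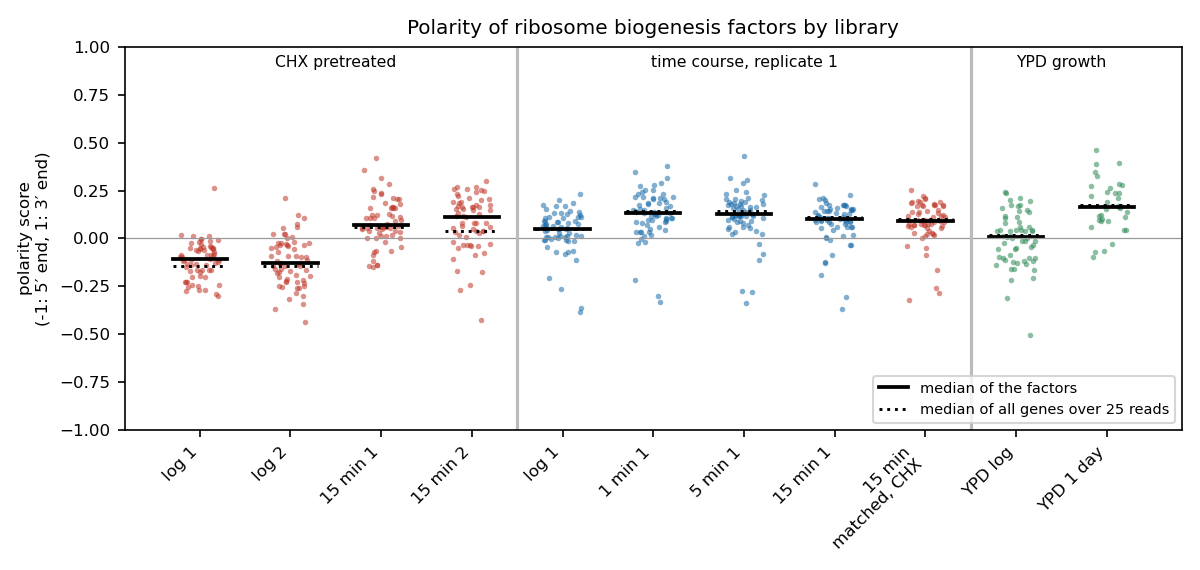
Polarity score of each factor with more than 25 reads, by library, from -1 (5′ end) to 1 (3′ end), with solid bars for the median of the factors and dotted bars for the median of all genes over 25 reads. The factors' median is -0.109 and -0.128 in pretreated log phase and 0.0682 and 0.110 after 15 min of starvation, and rises from 0.0519 in time course log phase to 0.134 at 1 min.

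The time course asks how early these changes appear when CHX is withheld until lysis. The paper proposes that log phase cells harvested in this way were briefly starved as their medium was removed. This log phase baseline may therefore not be free of stress. No factor passed the test at 1, 5 or 15 min (edgeR, 5255 genes). Over all genes, 0% were called higher and 0% lower at 1 min, the same at 5 min, and 0.0381% higher and 0.114% lower at 15 min. At an unadjusted p below 0.05, 1, 1 and 2 factors passed at 1, 5 and 15 min, or 1.56%, 1.56% and 3.12% beside 2.51%, 4.28% and 4.49% of all genes, and DESeq2 called no factor. The median log2 fold change of the factors was 0.11, 0.04 and 0.12, beside 0.01, -0.00 and 0.01 for all genes. The 3 comparisons share the same log phase libraries, 1 of which had 94585 reads.

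NOP10 had the smallest p at 1 min. It had 79.5 and 21.1 CPM in log phase, 22.6 and 0 CPM at 1 min, 35.3 and 14.7 CPM at 5 min and 43.6 and 62.2 CPM at 15 min. The replicate 2 values rest on 2, 0, 2 and 6 reads, so only replicate 1, with 280, 139, 142 and 220 reads, measures the gene with any precision. With the replicate block its log2 fold change was -1.81 at 1 min (edgeR adjusted p = 1.04e-11), -1.12 at 5 min (0.000106) and -0.69 at 15 min (0.0450). These values rest almost wholly on the replicate 1 libraries, so they say little about the spread between replicates. At 15 min the replicates disagreed in direction, since replicate 2 rose from 21.1 to 62.2 CPM.

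With the same block, NOP10 was the only factor called at 1 min, where 2.93% of all genes were called lower. RLP24 was called lower besides NOP10 at 5 min (-0.71 log2, edgeR adjusted p = 0.0262), where 3.98% of all genes were lower, and again at 15 min (-0.73 log2, edgeR adjusted p = 0.0160), where 3.88% were. Its values were 82.9 and 63.4 CPM in log phase, 60.2 and 65.5 at 1 min, 46.8 and 73.6 at 5 min and 47.0 and 41.5 at 15 min. At 5 min the replicates of RLP24 disagreed in direction, since replicate 2 rose from 63.4 to 73.6 CPM. Both 15 min values of RLP24 were below both log phase values, on only 6 and 4 reads in replicate 2.

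At 15 min the block also called 2 factors higher, beside 1.66% of all genes. UTP14 had 112 and 106 CPM in log phase, 147 and 131 at 1 min, 148 and 162 at 5 min and 214 and 124 at 15 min, and its log2 fold change at 15 min was 0.92 (edgeR adjusted p = 0.000258). Every starved library at 1, 5 and 15 min was above both log phase libraries for this gene, whereas the single 10 min library, with 8 reads, was at 111 CPM. NOP16 had 49.7 and 21.1 CPM in log phase and 81.5 and 31.1 CPM at 15 min (0.78 log2, edgeR adjusted p = 0.00927), with 2 and 3 reads in replicate 2, so its groups overlapped. The block coincides with depth, since in log phase and at 1, 5 and 15 min every replicate 1 library was deep and every replicate 2 library shallow. The deposited key also places both 15 min replicates in the opposite sequencing pools from the replicates of the same number at the other times. With the sequencing pool as the block in its place no factor was called at 1, 5 or 15 min, and the cause of the difference was not tested.

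Other factors with small unadjusted p are given as values, since none passed. NOC2, a partner of Noc1 and Noc3 in 60S export, had 139 and 95.2 CPM in log phase, 169 and 205 at 1 min, 174 and 221 at 5 min and 144 and 145 at 15 min. Its starved values all lay above its log phase values. RPF2, which brings the 5S ribonucleoprotein into the 60S precursor, had 72.4 and 42.3 CPM in log phase and 87.8 and 139.7 CPM at 5 min, and UTP7, a small subunit processome protein, had 78.1 and 106 CPM and then 98.1 and 213 CPM. NOC4, the partner of Nop14 in 40S assembly, had 68.7 and 31.7 CPM in log phase and 84.9 and 124 CPM at 15 min. At 1 min, UTP9 of UTP-A had 84.9 and 115 CPM against 67.8 and 63.4 in log phase, and UTP25 had 79.4 and 155 CPM against 70.1 and 74.0. UTP7 overlapped between its groups and the others did not. All were picked for their small p, and the share of all genes without overlap was not counted.

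NOP58 differed between the deep and the shallow libraries of the time course more than with time. Its level was 513 to 599 CPM in the deep libraries, the matched one included, and 1694 to 3027 CPM in the shallow ones. In the single libraries at 10, 20 and 30 min it had 173, 186 and 194 reads, or 2409, 2545 and 2659 CPM. Any comparison of these libraries with the deep log phase library carries that gap, and its cause was not tested.

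Without pretreatment, polarity could be tested for only 8 factors (488 genes passed the minimum of 25 reads in each of the 8 libraries). NOP56 was higher at 1 min (0.184 ± 0.0424 SE, limma adjusted p = 0.0393), where 7.17% of all genes were higher. It had scores of -0.0714 and -0.0609 in log phase, 0.0974 and 0.137 at 1 min, 0.117 and 0.0652 at 5 min and 0.107 and 0.154 at 15 min. Every starved score at these times was above 0 and both log phase scores were below it. The single libraries at 10, 20 and 30 min had scores of 0.137, -0.183 and 0.0349 on 40, 38 and 52 reads, so the 20 min score lay below both log phase scores. The call was lost when any of the 4 libraries compared was left out. At 5 and 15 min no factor passed, beside 4.30% and 0% of all genes. With the replicate block NOP56 alone was called at each time, beside 35.2%, 36.3% and 23.0% of all genes at 1, 5 and 15 min.

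The other factors with the smallest p had smaller differences. NOP1 went from 0.200 and 0.183 in log phase to 0.290 and 0.261 at 1 min and 0.303 and 0.275 at 5 min, without overlap. NOP7 went from -0.0140 and -0.139 to 0.0146 and -0.0201 at 1 min, and NOP58 from -0.00676 and 0.181 to 0.108 and 0.186. The log phase scores of NOP58 were farther apart than the means of its groups. RRP12, which acts in export of both subunits, had 0.0109 and 0.0438 in log phase and 0.0790 and 0.196 at 5 min, and RRP5 had 0.0138 and 0.0440 in log phase and 0.0849 and 0.0782 at 15 min. None of these 5 passed the test.

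The deep replicate 1 libraries covered all 64 factors and are given as a description, with 1 library per time. The score was above that of log phase for 60 factors at 1 min, 55 at 5 min and 45 at 15 min. The median difference was 0.0877, 0.0891 and 0.0476, beside 0.0915, 0.0933 and 0.0579 over 4710 genes. A difference over 0.1 was found for 28 factors at 1 min (43.8%, beside 45.8% of all genes), 26 at 5 min (40.6%, beside 47.2%) and 17 at 15 min (26.6%, beside 33.5%). In these replicate 1 libraries the factors thus moved about as far as other genes. Like them, they were nearer to log phase at 15 min than at 1 min. Over the 8 factors tested with both replicates this was not so: the median difference was 0.0481, 0.0747 and 0.0558 at 1, 5 and 15 min. Over the 488 genes tested it was 0.0864, 0.0843 and 0.0623.

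The difference in score correlated with log2 coding length with r = -0.39 (rho = -0.52) at 1 min, 0.08 (rho = 0.01) at 5 min and 0.40 (rho = 0.42) at 15 min over the 64 factors. Over 4709 genes the same r values were -0.36, 0.08 and 0.23. Shorter genes thus had the larger shift at 1 min and longer genes at 15 min, in libraries that share 1 log phase library. The largest shift at 1 min was 0.302, for RRP36, on 79 reads in log phase and 136 at 1 min. At 15 min it was 0.238, for NOP19, on only 39 reads in log phase and 29 at 15 min. Its 15 min score was 0.158, against 0.0690 on 68 reads in the matched library.

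The response of the factors to 15 min of starvation was then compared between the experiments. The effect in pretreated libraries minus that in the time course had a median of -0.68 over the factors and -0.02 over all genes, and 58 of 64 factors were below 0. None passed the test of this difference (edgeR, 5377 genes, with 0.614% of all genes called higher and 0% lower), and DESeq2 called none. At an unadjusted p below 0.05 there were 14 factors, all negative, or 21.9% beside 10.3% of all genes. With the replicate block, 3 factors were called, beside 1.25% of all genes lower. NOP10 differed by -1.87 ± 0.399 (SE, edgeR adjusted p = 0.0183), NOP2, a 25S rRNA methyltransferase, by -1.16 ± 0.298 (0.0442), and NOP7 by -1.33 ± 0.344 (0.0460) on the log2 scale.

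For NOP2, the pretreated values were 318 and 279.7 CPM in log phase and 167 and 176 CPM at 15 min, and those in the time course were 190.2 and 201 CPM and then 213 and 301 CPM. NOP7 had 251 and 359 CPM in time course log phase and 323 and 301 CPM at 15 min. Both genes were therefore lower after starvation in each pretreated library, while in the time course NOP2 was higher in both starved libraries and NOP7 overlapped. RRP1 had 68.7 and 74.0 CPM in time course log phase and 72.8 and 41.5 CPM at 15 min, and its difference between experiments was -1.20 log2 (edgeR adjusted p = 0.320).

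The log phase libraries of the experiments themselves differed in these genes. With pretreatment, 14 factors were higher and none lower (edgeR, 5377 genes), which is 21.9% beside 2.03% of all genes higher and 5.71% lower. The median log2 difference was 0.73 for the factors and 0.05 for all genes, and 62 of 64 factors were above 0. Of the 14, 12 were large subunit factors, and the others were NOP10 and RRP5. NOP53, which recruits the exosome helicase Mtr4 to the 60S precursor, had 133 and 160.3 CPM with pretreatment and 44.8 and 31.7 CPM without (1.58 ± 0.291 log2, edgeR adjusted p = 0.00661).

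NOC2 had 343 and 384 CPM with pretreatment and 139 and 95.2 CPM without (1.33 log2, edgeR adjusted p = 0.0127). NOP16 had 157 and 162 CPM against 49.7 and 21.1 CPM (1.64 log2, adjusted p = 0.0212), and RRP8, a 25S rRNA methyltransferase, had 154 and 147 CPM against 55.3 and 52.9 CPM (1.26 log2, adjusted p = 0.0229). The groups did not overlap for any of these genes. CHX pretreatment, library preparation and experiment cannot be told apart here, and the count fell to 0 to 3 when single log phase libraries were left out, with 0 without the deep time course library. Normalization by RLE gave 8 factors and DESeq2 gave 4.

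The matched 15 min library bears on pretreatment within the time course, with 1 library on each side. Against the deep 15 min library without pretreatment, no factor differed by more than 2-fold, beside 0.365% of all genes higher and 0.209% lower. The factors took 0.836% of reads with pretreatment and 0.842% without, a ratio of 0.993 (95% interval 0.981 to 1.01, counting error only). Log2 ratios ran from -0.34 for UTP14 (169 against 214 CPM) to 0.51 for NOP19, which rests on 68 and 29 reads. The next were RRP14 at -0.26 and NOP10 at -0.21 on the low side, and RRP45 at 0.29 and RRP36 at 0.25 on the high side. The median factor was at -0.00. Across the 64 factors the polarity scores of these libraries had r = 0.91 and rho = 0.81.

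In the single libraries at 10, 20 and 30 min, the factors took 1.06%, 1.15% and 1.12% of reads. These shares were 1.36, 1.48 and 1.44 times that of the deep log phase library but 0.966 (95% interval 0.879 to 1.06), 1.05 (0.957 to 1.15) and 1.02 (0.931 to 1.12) times that of log phase replicate 2, a library of like depth chosen as the reference after seeing the data. The rise against the deep library was therefore not found against the shallow one. NOP58 alone gave 173, 186 and 194 of the 758, 838 and 814 factor reads, and with it left out the ratios to the deep library were 1.13 (1.04 to 1.23), 1.24 (1.14 to 1.34) and 1.18 (1.09 to 1.28). RRP17 at 10 min, RRP36 at 20 min and RRP42, UTP11 and RRP36 at 30 min had no reads, but their log phase level of 22.4 to 34.3 CPM is under the 41.1 or 41.8 CPM that 3 reads are worth, so no fold is given.

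Besides NOP58, the highest ratios to the deep log phase library at 20 min were those of UTP21 (29 reads, 3.35-fold, 95% interval 2.21 to 4.88) and RRP15, a large subunit factor (8 reads, 3.35-fold, 1.41 to 6.83). At 30 min they were those of UTP7 (12 reads, 2.11-fold, 1.08 to 3.74) and UTP22 (26 reads, 2.07-fold, 1.34 to 3.06). At 10 min, RRP46 (5 reads) and UTP30 (3 reads) had ratios of 2.85 (0.903 to 6.92) and 2.37 (0.477 to 7.27), whose intervals include 1. The lowest with any reads at 10 min were NOP53 (1 read, ratio 0.311, 0.00781 to 1.76) and NSA1, a large subunit factor (2 reads, 0.396, 0.0476 to 1.44). NOP10 had 6 reads at 10 min (ratio 1.05, 0.383 to 2.32), 1 at 20 min (0.172, 0.00434 to 0.967) and 1 at 30 min (0.172, 0.00435 to 0.969). RRP17 had 1 read at 20 min (0.473, 0.0119 to 2.69), and the lowest ratio at 30 min was that of RRP6 (1 read, 0.165, 0.00416 to 0.926). These intervals cover counting error only.

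Over several days of growth in YPD, the factors took a smaller share of RPF reads. Their share was 1.08% (Wilson 95% interval 1.06 to 1.11) in log phase, 0.525% (0.506 to 0.544) at 1 day and 0.346% (0.319 to 0.375) at 5 days, or 0.485 and 0.319 times the log phase share. At 1 day, 41 of the 64 factors (64.1%) were more than 2-fold lower, beside 22.4% of all genes, and 1 was more than 2-fold higher, beside 33.1%. At 5 days, 55 (85.9%) were more than 2-fold lower, beside 42.1% of all genes. The median log2 ratio was -1.18 at 1 day and -1.93 at 5 days, beside 0.26 and -0.57 for all genes. With 1 library per condition there is no test.

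NOP10 was again the gene with the lowest ratio at 1 day, with 119 reads in log phase and 11 at 1 day (182 and 19.1 CPM, ratio 0.105, 95% interval 0.0509 to 0.194). UTP23, needed for 18S rRNA production, went from 51 to 6 reads and RLP24 from 61 to 8 reads. Their counts are small but the intervals of their ratios, 0.0467 to 0.311 and 0.0614 to 0.312, lie well below 1. At 5 days, UTP8 had 0 reads against 156 in log phase (95% interval of the ratio 0 to 0.0921). With 3 reads in that library (17.7 CPM) as the floor it was 13.5-fold lower, without the counting error of the log phase reads. RPF2 went from 71 reads to 1 (ratio 0.0542, 0.00135 to 0.312) and NOP10 from 119 to 3 (ratio 0.0970, 0.0197 to 0.290).

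A few factors had ratios near or above 1 on at least 1 of these days. RRP43, an exosome ring subunit, had 38 reads in log phase, 50 at 1 day and 18 at 5 days (58.2, 86.8 and 106 CPM), and the intervals of both ratios include 1 (0.958 to 2.34 and 0.979 to 3.27). RRP6, the nuclear exonuclease of the exosome, had 68 reads in log phase and 65 at 1 day (ratio 1.08, 0.759 to 1.54) but 2 at 5 days (0.113, 0.0134 to 0.425). NOP9, an RNA-binding small subunit factor, had 80 reads in log phase, 25 at 1 day (0.354, 0.216 to 0.561) and 15 at 5 days (0.721, 0.386 to 1.26). RRP7 had 51, 24 and 12 reads, with ratios of 0.533 (0.314 to 0.882) and 0.905 (0.439 to 1.72). RRP43 was thus the only one of these 4 whose interval included 1 on both days, though some factors outside the 4 also had such intervals. By role, the median log2 ratio at 1 day ran from -0.72 for the exosome to -1.48 for the snoRNP core proteins.

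NOG2, a GTPase that checks late nuclear 60S precursors, was the only factor more than 2-fold higher at 1 day. It had 134 reads in log phase, 291 at 1 day and 133 at 5 days, or 205, 505 and 784 CPM, with ratios of 2.46 (95% interval 2.00 to 3.04) and 3.82 (2.98 to 4.89). NOG2 is also the only factor with 2 coding exons. Its span (chrXIV:721120-723112, R64, - strand) includes the small nucleolar RNA gene SNR191 (chrXIV:721938-722211, same strand, 274 nt), and no other factor overlaps another gene of the RefSeq annotation. Whether snoRNA reads entered its count was not tested.

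**Figure D5:**
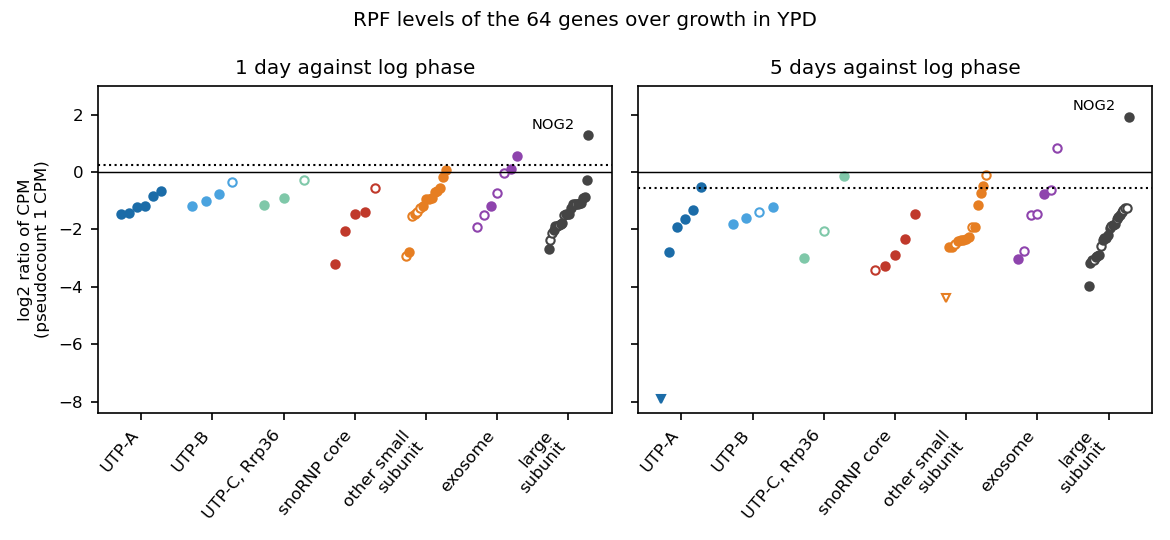
Log2 ratio of CPM (pseudocount 1 CPM) to YPD log phase for the 64 factors at 1 day (left) and 5 days (right), by role, 1 library per condition. Open symbols had under 50 reads in both libraries, triangles had 0 reads at 5 days, and dotted lines mark the median of all genes at 0.26 and -0.57. Most factors lie below the dotted lines, and NOG2 lies above them at 1.29 and 1.93.

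Polarity at 1 day could be compared for 35 factors with more than 25 reads in both libraries. The median difference was 0.153, beside 0.148 over 2136 genes, and 25 of the 35 were higher by more than 0.1, beside 64.4% of all genes. RRP6, with its 68 and 65 reads, had scores of -0.157 and 0.192. At 5 days only 2 factors had enough reads.

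Other genes of the pathway give the setting. Of 107 further ribosome assembly genes with other symbols, 15 were lower and 0 higher in pretreated cells after 15 min of starvation (median -0.56 log2, with 45 lower and 2 higher with the replicate block). DIM1, the 18S rRNA dimethylase, was at -1.61 log2 (edgeR adjusted p = 0.0181) and KRR1, a small subunit processome protein, at -1.46 (0.0212). In the time course none was called without the block, with medians of 0.09, 0.11 and 0.13 at 1, 5 and 15 min. Their polarity score was higher for 71 in pretreated cells, beside 41.5% of all genes (median difference 0.223 against 0.185). NMD3, the 60S export adaptor, and SDA1, a 60S export factor, had the smallest p. In log phase, 16 were higher with pretreatment (median 0.67), beside 2.03% of all genes. Among them were IMP4 of the small subunit processome and LOC1. In YPD, 69 were more than 2-fold lower at 1 day and 92 at 5 days, beside 22.4% and 42.1% of all genes. PAC and RRPE cores were found in 88.8% and 80.4% of their promoters. The cytosolic ribosomal protein genes, with these cores in 11.4% and 12.1%, had a median of -1.37 log2 in pretreated cells. Of these 132 genes 45 were called lower, beside 4.93% of all genes.

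Of the regulators of these genes, the activator SFP1, the kinase SCH9 and the repressors STB3, DOT6 and TOD6, none had significantly changed RPF counts in pretreated cells after starvation. DOT6 had 156 and 169.8 CPM in log phase and 254 and 245 CPM after starvation (0.63 log2, edgeR adjusted p = 0.132, and 0.0498 with the replicate block). STB3 had 40.5 and 92.5 CPM in log phase and 54.0 and 219 CPM after starvation (0.98 log2, adjusted p = 0.264, and 0.0307 with the block). The DOT6 groups were separate and the STB3 groups overlapped. The polarity score was higher for SFP1 (0.295, limma adjusted p = 0.0156), SCH9 (0.259, 0.0193) and DOT6 (0.242, 0.0257).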

How the data were processed

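RPF libraries of 3 experiments were used, and the RNA-seq and glucose readdition samples were not analysed here. Per the authors' methods, footprints of 28 nt were selected for pretreated libraries, whose reads were trimmed and aligned by an earlier protocol. Reads of the other libraries were trimmed with Cutadapt, those under 17 nt were discarded, those matching noncoding RNA were removed with Bowtie, and the rest were aligned to R64 and deduplicated by UMI. The deposited counts are raw counts per gene from HTSeq. The deposited polarity score per gene was made with the authors' scripts. Tool versions are not stated in those methods or in the labels. The conditions of time course libraries inside the sequencing pools come from the names of the deposited sheets and their key.

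Counts were tested with edgeR 4.0.16 (TMM, quasi-likelihood) and polarity scores with limma 3.58.1 (trend, genes over 25 reads per library) on R 4.3.3, with Benjamini-Hochberg adjustment over all genes. Both were tested on simulated data. DESeq2 1.42.0, RLE normalization, other filters and left-out libraries were alternatives. Conditions with 1 library were compared by ratios of CPM (pseudocount 1 CPM). Intervals cover counting error only. Of 5767 gene IDs, 5762 matched the RefSeq annotation.

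Each starvation sample was a portion of a culture whose other portion stayed in log phase. Same-numbered libraries deviated together (correlation 0.436 in pretreated and 0.866 to 0.906 in time course libraries). In the time course the replicate number coincides with depth, so the correlation there cannot tell a shared culture from depth. The numbers were nonetheless taken to pair the libraries. The fits with and without the block had been seen when this was decided, and the main design has no block. Nothing else says that replicates were separate cultures, so p-values measure the spread between these libraries.

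The genes, roles and lists were chosen with earlier results of these data known. Named are, per tested comparison, the 4 called factors with the smallest p in each direction (the 4 smallest p where fewer were called) and any called against the majority, in each role the factor with the highest log phase TPM, and, with 1 library per condition, the 3 highest and 3 lowest ratios among genes with at least 50 reads in either library. NOP7, NOP16, NOP2, RLP24, RRP17 and the other called genes outside this rule were named after their values were seen.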

Additional observations from a re-analysis of the deposited data

Results flagged for a closer look

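For 3 factors the effect of 15 min of glucose starvation differed between the pretreated and the time course libraries by a test of the difference itself (edgeR, replicate block, adjusted over 5377 genes). For NOP10 the difference was -1.87 (adjusted p = 0.0183), from effects of -2.41 with pretreatment and -0.69 without. For NOP2 it was -1.16 (adjusted p = 0.0442), from -0.80 and 0.29, and for NOP7 it was -1.33 (adjusted p = 0.0460), from -1.10 and 0.31. Without the block the edgeR adjusted p was 0.120, 0.262 and 0.250, so none passed. The block rests on the replicate numbers of the deposited sheets, and the 15 min time course replicates are placed in the opposite sequencing pools from the other replicated times.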

How the results depend on the processing

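With the replicate block, the factors called in pretreated cells at 15 min were 23 lower and 1 higher in place of 11 and 0 (DESeq2 also called 1 higher), those in the time course were 1 lower at 1 min, 2 lower at 5 min and 2 higher and 2 lower at 15 min in place of 0, and those for the difference between experiments were 3 lower in place of 0. Polarity calls in the time course with the block were 1 at 5 min and 1 at 15 min in place of 0, as with a minimum of 50 reads. The block changed no other count of factors by more than 1.5 times. The single polarity call at 1 min went to 0 with a minimum of 10 reads, without the trend and with only the 4 libraries compared. For log phase with and without pretreatment, RLE normalization gave 8 and DESeq2 gave 4 factors in place of 14, and the replicate numbers do not pair libraries across experiments. TMM scaling gave 2 factors in place of 1 more than 2-fold higher at 5 days. The share at 10, 20 and 30 min was 0.966, 1.05 and 1.02 times log phase replicate 2, a reference chosen after seeing the data, in place of 1.36, 1.48 and 1.44 times replicate 1, and 1.13, 1.24 and 1.18 times replicate 1 with NOP58 left out, also chosen after seeing the data.

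Over all genes, the block gave 840 higher and 752 lower in pretreated cells at 15 min in place of 393 and 251, and 154, 209 and 204 lower at 1, 5 and 15 min of the time course in place of 0, 0 and 6, where DESeq2 gave 22, 59 and 48 lower and the pool as block gave 0 at 15 min. It gave 87 higher in place of 2 at 15 min, and 170 higher and 67 lower for the difference between experiments in place of 33 and 0. DESeq2 gave 46 higher and 163 lower for pretreated log phase in place of 109 and 307. Polarity calls with the block were 172, 177 and 112 higher in the time course in place of 35, 21 and 0. Of 196 counts over all genes, 86 differed from the given one by more than 1.5 times.

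Leaving out single libraries gave 1 to 9 factors lower at 15 min in pretreated cells, 0 to 3 higher in pretreated log phase, 0 to 45 with a higher and 0 to 1 with a lower polarity score in pretreated cells, and 0 with a higher score at 1 min. The polarity difference of NOP58 ran between -0.0337 and 0.154 at 1 min and between -0.0295 and 0.158 at 15 min, and it turned negative without time course log phase replicate 1. Where a group kept 1 library, it was assumed to vary like the others. Of 358 values for named genes under all alternatives, 310 kept their direction and their side of the threshold. In the replicate 2 libraries of the time course, many factors had fewer than 10 reads, and calls there depended on the fit as given above. Except where stated, causes were not tested.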
